A study of Homo sapiens with 9 samples.

Results

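The transcriptome of JAG1 knockout clone 2 was compared with that of wild-type MDA-MB-231-D3H2LN cells, which derive from the human breast cancer line called MDA-MB-231. The comparison used 6 of the 9 RNA-sequencing libraries of the series, 3 of wild-type cells that express JAG1 and 3 of clone 2. The remaining 3 libraries, of JAG1 knockout clone 1, entered the same fit to estimate the spread and served to show where clone 2 differed from another knockout line. All genes with enough counts were included, which were 16921 of the 56505 listed. Per the labels, a Cas9 ribonucleoprotein with guides to separate places of a JAG1 exon was transfected, colonies were grown from single cells by dilution, and homozygous knockouts were chosen by amplicon sequencing and western blotting. All groups grew in the same high-glucose medium with serum, and no further treatment is listed. The libraries of clone 2 therefore describe 1 line that descends from 1 cell, and a property of that cell and the loss of JAG1 cannot be told apart in this comparison. Nothing in the labels ties replicates to separate cultures. The p-values therefore measure the spread between these libraries, and that spread may be technical.

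JAG1 encodes Jagged1, a transmembrane ligand of the Notch family. A ligand on the surface of a cell binds a Notch receptor on its neighbour, the receptor is cut by an ADAM protease and then by gamma-secretase, and its intracellular domain enters the nucleus. There it joins the DNA-binding protein RBPJ and a Mastermind coactivator and switches on target genes, of which the HES and HEY repressors are the best known. In breast cancer JAG1 is known as a Notch ligand of basal and mesenchymal tumour cells, and MDA-MB-231 is a widely used mesenchymal line that lacks oestrogen receptor.

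The promoters of genes whose values are described below are shown here, read from RefSeq promoter windows on GRCh38.p14. The first pair belongs to HES1 and HES4, direct Notch targets that fell in clone 2. They are given on the strand of the gene, 5′ to 3′, with the letters TGGGAA, the core of the sequence that RBPJ binds, in capitals. The HES1 stretch is chr3:194136004-194136107 on the plus strand, and its pair of TGGGAA matches begins 84 and 70 bases before the annotated start. The HES4 stretch is chr1:1000144-1000233 on the minus strand, and its match begins 76 bases before the start.
HES1: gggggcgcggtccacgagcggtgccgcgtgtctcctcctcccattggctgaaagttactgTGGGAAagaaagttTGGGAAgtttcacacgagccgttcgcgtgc
HES4: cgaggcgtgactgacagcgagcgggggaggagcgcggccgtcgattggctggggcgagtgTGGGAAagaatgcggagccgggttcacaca
The letters TGGGAA occurred on either strand in 20.8% of 35116 windows of 250 bases upstream, and the longer GTGGGAA, which contains them, in 5.43%. Of the 24 Notch target genes tested, 18 had a window, and 5 of these held GTGGGAA in any of their windows: HES1, HES4, HEYL, PLAU and TNC. This count is per gene and the shares above are per window, so they cannot be compared directly. The second pair belongs to MAGEB2 and COL4A5, which had no counts in clone 2. CG dinucleotides, the sites at which DNA can be methylated, are in capitals. MAGEB2 is shown for chrX:30215313-30215559 and COL4A5 for chrX:108439588-108439837, both on the plus strand.
MAGEB2: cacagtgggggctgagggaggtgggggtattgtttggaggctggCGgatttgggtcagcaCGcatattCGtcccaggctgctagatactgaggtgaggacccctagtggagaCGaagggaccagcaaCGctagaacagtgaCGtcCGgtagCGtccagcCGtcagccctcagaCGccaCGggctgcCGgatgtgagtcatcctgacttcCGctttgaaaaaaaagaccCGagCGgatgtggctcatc
COL4A5: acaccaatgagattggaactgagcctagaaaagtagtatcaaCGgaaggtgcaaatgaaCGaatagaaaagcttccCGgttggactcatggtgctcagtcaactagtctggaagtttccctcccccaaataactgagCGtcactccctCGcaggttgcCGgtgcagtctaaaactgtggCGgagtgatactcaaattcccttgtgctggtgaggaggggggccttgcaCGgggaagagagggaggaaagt
The whole 250-base windows held 15 CG dinucleotides for MAGEB2 and 8 for COL4A5. Over 7822 tested genes with 1 window the median was 21. Exactly 1 window was found for 12 of the 22 genes that were nearly absent in clone 2, and their median was 10.5, with 9 of the 12 below the lower quartile of 14. The comparison was not matched for expression level, and the 7822 genes include abundant ones. These letters describe the windows, and no methylation was measured.

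Total counts per library ran from 18794082 to 22456164 in the 6 libraries. Mitochondrially encoded mRNA made up 2.52%, 3.67% and 1.66% of counts in wild-type replicates 1 to 3 and 0.843%, 1.79% and 1.01% in clone 2, so the groups overlapped. Clone 2 replicate 1 had the fewest genes with a count (19905, against 21395 to 24309 in the other 5). Markers of MDA-MB-231 were high in every library: VIM, CD44, EGFR, AXL, CAV1 and MSN summed to between 3952 and 5814 CPM (the count divided by the scaled library size, in the usual units of CPM) in wild type and to between 5952 and 7588 in clone 2. Of 7 markers chosen as low or absent in this line, the oestrogen and progesterone receptor genes ESR1 and PGR were below 1 CPM on average in both groups. So were CDH1 and KRT5. The others were not: ERBB2 had means of 90.5 CPM in wild type and 94.8 in clone 2, EPCAM 17.9 and 12.3, and GATA3 13.2 and 16.2. Of 6 leukocyte markers, 2 had no counts, and their sum was 1.89 to 4.53 CPM in wild type and 0.186 to 0.533 in clone 2, mostly from CD14. Fibroblast markers (5 of 5 detected) summed to 24.5 to 56.2 CPM in wild type and 13.4 to 18.3 in clone 2, mostly from COL1A1 and LUM. Endothelial markers (3 of 4 detected, CDH5 at 0) summed to 4.23 to 5.04 and 3.65 to 4.12 CPM. The 3 adipocyte markers stayed at or below 0.804 CPM. Fewer cells that express a gene and less RNA per cell cannot be told apart in these bulk libraries.

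JAG1 mRNA was lower in clone 2 but not absent. The gene lies at chr20:10637684-10674107 on the minus strand (GRCh38). Wild-type replicates 1 to 3 had 246, 161 and 181 CPM, and clone 2 had 76.1, 68.1 and 56.5 CPM, with raw counts of 5069, 3803 and 3592 against 1230, 1406 and 1190. Every clone 2 library lay below every wild-type library (log2 fold change −1.55 with SE 0.18, adjusted p = 0.00013 by edgeR's quasi-likelihood test). The call held in every alternative fit. The counts cover all exons and do not measure protein, so an edited allele can still contribute reads.

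**Figure D1:**
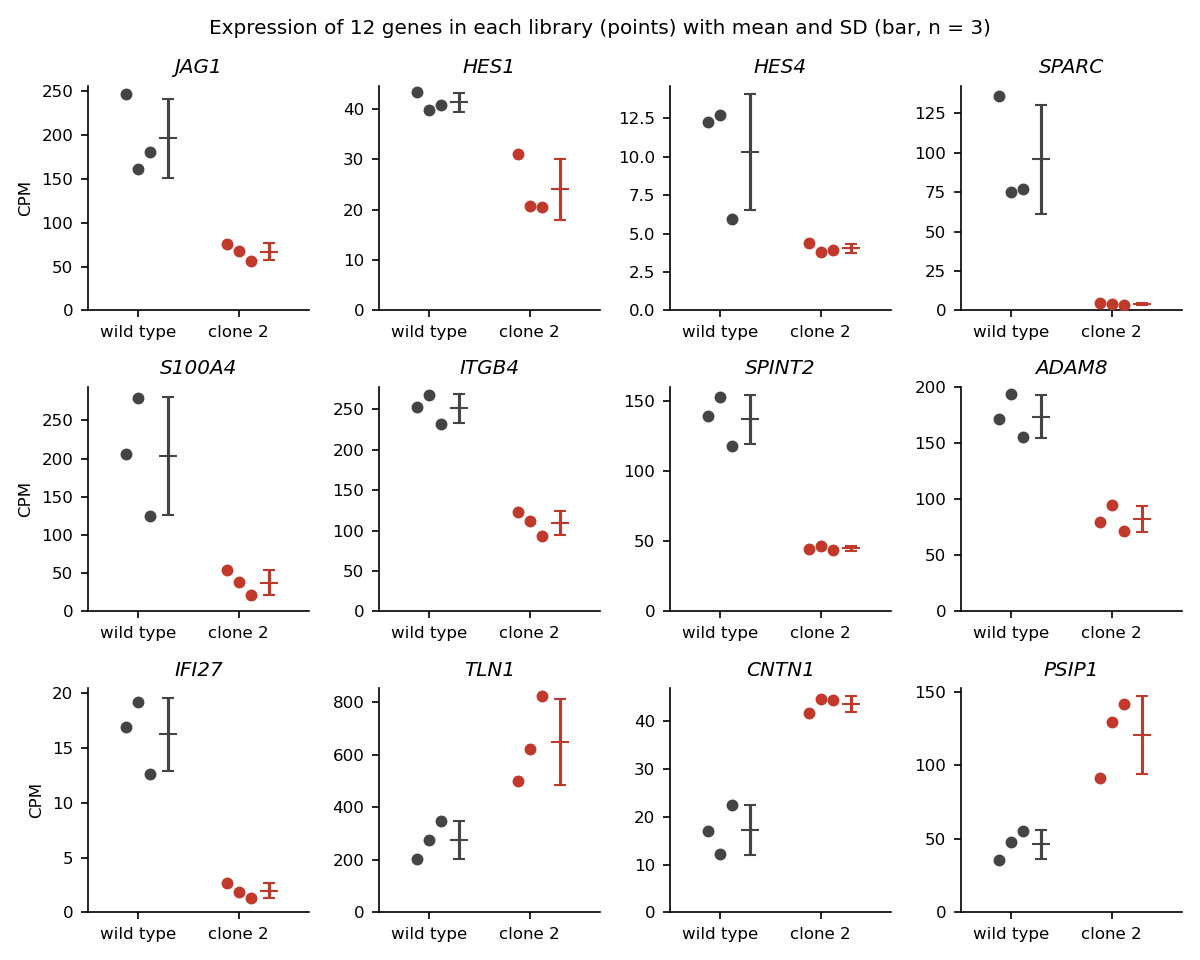
Expression in CPM (vertical axes, each from 0) of 12 genes in the 3 wild-type and 3 clone 2 libraries (points), with the mean and SD beside them. JAG1, HES1, HES4, SPARC, S100A4, ITGB4, SPINT2, ADAM8 and IFI27 were lower in all clone 2 libraries than in any wild-type library, and TLN1, CNTN1 and PSIP1 were higher.

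Over the whole transcriptome, 1008 of 16921 genes (5.96%) passed an adjusted p of 0.05, 543 higher (3.21%) and 465 lower (2.75%) in clone 2. Increases were small and mostly in abundant genes, and decreases were larger and mostly in weakly expressed genes. Among called genes 65 were higher and 295 lower by more than 2-fold, and 5 and 156 by more than 4-fold. The median log2 fold change was 0.67 for called increases and −1.31 for called decreases, and their median wild-type level was 68.6 and 10.2 CPM, against 16.5 CPM over all tested genes. The direction followed the level over all genes, called or not. The median log2 fold change was −0.44 below a mean of 1 CPM, −0.24 from 1 to 5 CPM, −0.06 from 5 to 20 CPM, 0.09 from 20 to 100 CPM and 0.22 above that. Calls at 100 CPM or more were 245 higher and 23 lower, and those below 1 CPM 1 higher and 67 lower. When a smooth trend of each library with expression level was taken out, 295 genes were higher and 503 lower, and with GC content and gene length corrected for, 1056 were higher and 443 lower. The libraries of the groups did not overlap for 4390 genes (25.9%), and for 993 of the 1008 called. In the paragraphs that follow, values with ± are the mean and SD of 3 libraries. A single number in parentheses after levels is the log2 fold change, and a second number is its adjusted p by edgeR's quasi-likelihood test.

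**Figure D2:**
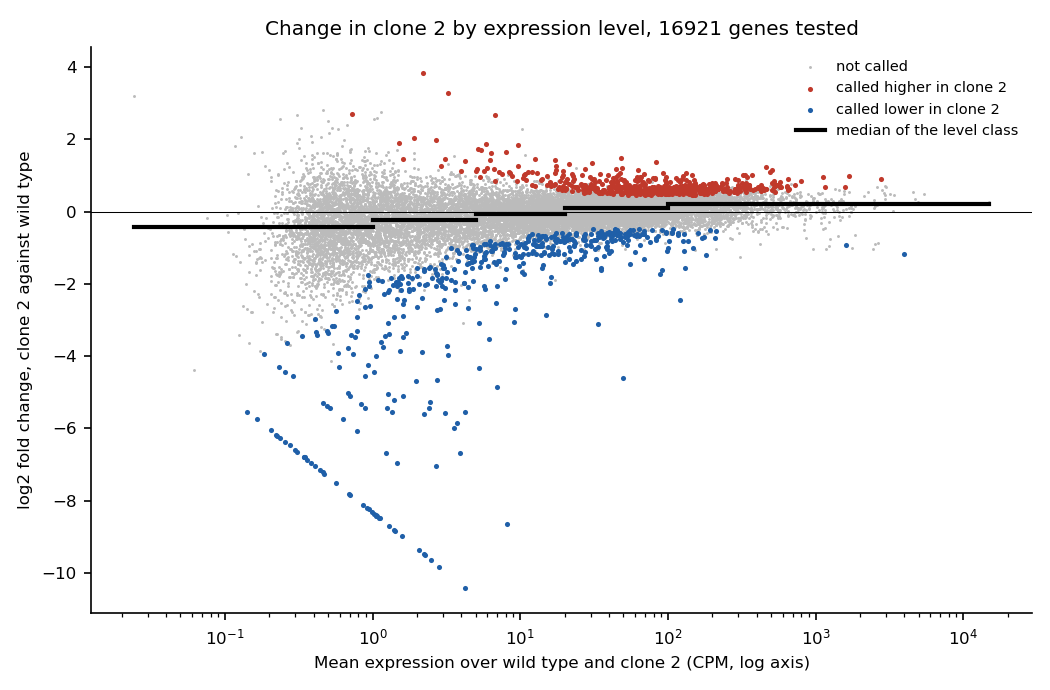
Log2 fold change of clone 2 against wild type (vertical axis) by mean expression in CPM over both groups (horizontal log axis) for each of the 16921 genes tested. Called genes are coloured, and black bars give the median of each level class, from −0.44 below 1 CPM to 0.22 at 100 CPM or more. The diagonal row of points at the lower left holds genes with no counts in clone 2, whose fitted values depend on the prior count.

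The number of called genes rested on single libraries. Leaving out wild-type replicate 1 gave 297 and leaving out wild-type replicate 2 gave 238, while 1584 passed without wild-type replicate 3. It was 598 without clone 1 replicate 2, and 237 without clone 2 replicate 3. A fit of only the 6 libraries compared called 416 of 15917 genes (2.61%), 160 higher and 256 lower. With the replicate number as a block, 2699 genes passed, 1528 higher and 1171 lower, which included all of the 1008. With no filter on low counts 1663 passed, and DESeq2 called 1653. With the share of mitochondrial mRNA as a covariate 80 passed, 11 higher and 69 lower, and 142 of 187 called genes chosen by the naming rule lost their call. The lists of lost calls below leave this covariate out except where it is named. A call that held without any 1 library can be among the 142. Of the called genes, 177 passed both in the 6-library fit and without any 1 library, 47 higher and 130 lower.

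Among ligands and receptors of the Notch pathway, JAG1 and MFAP2 were the members called. In this list 0 rose and 2 fell of 10 tested (median log2 fold change −0.15), where 3.21% of all tested genes rose and 2.75% fell. MFAP2 encodes a microfibril glycoprotein that can bind Jagged1, and it had 57.4, 41.1 and 31.5 CPM in wild type and 29.4, 17.8 and 16.4 CPM in clone 2 (log2 fold change −1.04 with SE 0.23, adjusted p = 0.0196). The clone 2 libraries were all below the wild-type ones. The receptor genes did not pass, although NOTCH3 did with a replicate block in the 6 libraries alone (adjusted p = 0.0346). NOTCH2 had a mean of 272 CPM in wild type and 301 in clone 2 (log2 fold change 0.14, adjusted p = 0.625). NOTCH1 had 45.3 and 45 (−0.01, adjusted p = 0.979), and NOTCH3 7.3 and 4.59 (−0.67, adjusted p = 0.126). NOTCH4 was under 2 CPM in both groups. The second Jagged gene, JAG2, had 33.5 and 27.3 CPM (log2 fold change −0.29, adjusted p = 0.243), and the Delta-like ligand gene DLL1 4.5 and 2.78 (−0.70, adjusted p = 0.273). The tested non-canonical ligand genes DNER and DLK2 did not pass either (adjusted p = 0.832 and 0.56).

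Of the genes that process Notch and act with it in the nucleus, 2 rose and 1 fell of 32 tested (median log2 fold change 0.01, 3 and 4 with the replicate block, −0.01 with RLE size factors, 0.04 after the GC content and length correction, −0.05 with the level trend taken out). The share called was 9.375%, against 5.96% of all tested genes. RBPJ, the DNA-binding partner of the Notch intracellular domain, rose from 179, 193 and 266 CPM to 432, 404 and 449.6 CPM (log2 fold change 1.01 with SE 0.17, adjusted p = 0.0026). MAML1, a Mastermind coactivator, rose from 75.2 ± 5.11 to 105 ± 9.95 CPM (log2 fold change 0.48, adjusted p = 0.0437). In the 10 Mb stretch of chromosome 4 that holds RBPJ, 4 of 20 tested genes rose and 0 fell (median log2 fold change 0.23). In that of chromosome 5 with MAML1, 11 of 89 rose and 0 fell (median 0.25). The part of position in these 2 increases was not tested. POGLUT1, which adds glucose to the EGF repeats of Notch, fell from 16.1 ± 2.72 to 10.3 ± 0.531 CPM (log2 fold change −0.64, adjusted p = 0.0491). The gamma-secretase genes PSEN2, NCSTN, APH1A, APH1B and PSENEN had log2 fold changes between −0.28 and 0.19 and none passed. ADAM10, the main protease of ligand-bound Notch, had a log2 fold change of −0.07 (adjusted p = 0.8). Its relative ADAM17 had −0.40 (adjusted p = 0.0693, and 0.0305 with the replicate block). LFNG, which adds sugars to Notch and alters its response to Jagged ligands, had −0.60 (0.109, and 0.0183 with the block). FBXW7, which marks the intracellular domain for destruction, had −0.49 (0.0966, and 0.0432 with the block). A block in the 6 libraries alone also gave calls to MIB1, NEURL1B, NUMB, ITCH and DTX3 (adjusted p = 0.0153, 0.0345, 0.0357, 0.0299 and 0.000698). The call of RBPJ held without any 1 of the 9 libraries and was lost with the mitochondrial covariate (adjusted p = 0.104). MFAP2, MAML1 and POGLUT1 each lost the call without 1 or more of wild-type replicate 1 or 2, clone 1 replicate 1, 2 or 3 or clone 2 replicate 1, 2 or 3 (with adjusted p reaching 0.229). Calls were also lost by MFAP2, MAML1 and POGLUT1 in the fit of the 6 libraries (0.051 to 0.0945), by MAML1 after the GC content and length correction (0.0541), by MAML1 and POGLUT1 with the level trend taken out (0.0673 to 0.11), by POGLUT1 in limma-voom (0.0588), by MAML1 with RLE size factors (0.0511).

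Notch target genes moved in both directions in the fit of all 9 libraries: 3 rose and 2 fell of 24 tested (median log2 fold change 0.08, 5 and 5 with the replicate block, 0.16 after the GC content and length correction, −0.01 with the level trend taken out). In the fit of the 6 libraries, and also with the level trend taken out, 0 rose and 2 fell. Of all tested genes 3.21% rose and 2.75% fell. HES1, the repressor whose promoter is printed above, had 43.3, 39.7 and 40.8 CPM in wild type and 31, 20.6 and 20.4 CPM in clone 2 (log2 fold change −0.78 with SE 0.17, adjusted p = 0.0141). Clone 2 replicate 1 was nearest to the wild-type values, and the groups did not overlap. HES4, a related repressor, had 12.2, 12.7 and 5.93 CPM against 4.39, 3.78 and 3.94 CPM (log2 fold change −1.35 with SE 0.28, adjusted p = 0.0116), and wild-type replicate 3 was the lowest of its group. Among the targets that rose, the cyclin gene CCND1 had 306, 310.2 and 409 CPM in wild type and 503, 463 and 570 CPM in clone 2 (log2 fold change 0.58, adjusted p = 0.0463). SOX9, a transcription factor of progenitor cells, rose from 157 ± 31.2 to 241 ± 26.3 CPM (0.62, 0.0313), and the cell cycle inhibitor gene CDKN1A from 78.9 ± 15.7 to 118 ± 8.89 CPM (0.58, 0.0338). HEY1 and HEYL, the tested members of the HEY family, were at 1.61 and 2.42 CPM in wild type and did not pass (adjusted p = 0.49 and 0.249). NRARP, a feedback inhibitor of Notch, had a log2 fold change of 0.11 (adjusted p = 0.856). MYC had 0.43 (0.158, and 0.0403 with the replicate block) and SNAI2, a repressor of epithelial genes, −0.60 (0.106, and 0.00428 with the block). BHLHE40, TNC and IL6 had −0.37, 0.44 and −1.31 (adjusted p = 0.276, 0.311 and 0.0839, and 0.0391, 0.0497 and 0.0159 with the block). HES7 and PLAU passed with a block in the 6 libraries alone (adjusted p = 0.0373 and 0.0281). Each of HES1, HES4, CCND1, SOX9 and CDKN1A lost its call without at least 1 of these libraries: wild-type replicate 1, 2 or 3, clone 1 replicate 1, 2 or 3 or clone 2 replicate 3 (with adjusted p reaching 0.203). An adjusted p above the threshold was also given by CCND1, SOX9 and CDKN1A in the fit of the 6 libraries (0.0809 to 0.106), by CCND1, SOX9 and CDKN1A with the level trend taken out (0.0626 to 0.1), by CCND1 with RLE size factors (0.0513).

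A set of 22 genes reached a mean of 2 CPM in wild type and had at most 3 counts over the 3 clone 2 libraries. No gene met the same limits the other way round. Of the 22, 16 had 0 counts in clone 2, and 7 lie on the X chromosome. All were called (largest adjusted p 0.00162), all kept the call without any 1 library, and in the fit of 6 libraries the largest adjusted p was 0.00899. With the mitochondrial covariate CD33 and CTD-2130O13.1 did not pass (adjusted p = 0.0517 and 0.0597). The 22 were picked from these same counts for a difference between the groups, so their calls are built in and support nothing. With a floor of 3 counts over the group, those at 0 were at least 39.4-fold to at least 161-fold lower. COL4A5, a chain of basement membrane collagen whose promoter is printed above, had 125, 106 and 87 counts in wild type and 0, 0 and 0 in clone 2 (at least 95.7-fold lower). Its neighbour COL4A6, which shares a promoter region with it, had 0.486, 0.635 and 0.402 CPM in wild type and no counts in clone 2. EYA1, a transcriptional coactivator and phosphatase of organ development, had 79, 133 and 148 counts against 0, 0 and 0 (at least 108-fold lower). PKIA, which blocks protein kinase A, had 361, 390 and 291 counts against 0, 0 and 2 (ratio of wild type to clone 2 470.5, 95% counting interval 129.9 to 3890.1). ARHGAP15, a Rac-directed GTPase activator, had 73, 120 and 99 counts against 0, 0 and 0 (at least 87.9-fold lower). NRXN3, which encodes the synaptic adhesion protein neurexin 3, had 42, 56 and 45 counts against 0, 0 and 0, and the phospholipase gene PLCB1 24, 69 and 44 against 0, 0 and 0. SELENBP1, a selenium-binding protein, had 48, 102 and 42 counts against 0, 1 and 0 (ratio of wild type to clone 2 173, 95% counting interval 30.8 to 6884). CD33, a sialic acid-binding receptor, had 78, 39 and 14 against 0, 0 and 0. The zinc finger genes ZNF287 and ZNF717 had 168 and 155 counts over the wild-type libraries and 0 and 1 over those of clone 2. Counting intervals cover counting error only.

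**Figure D3:**
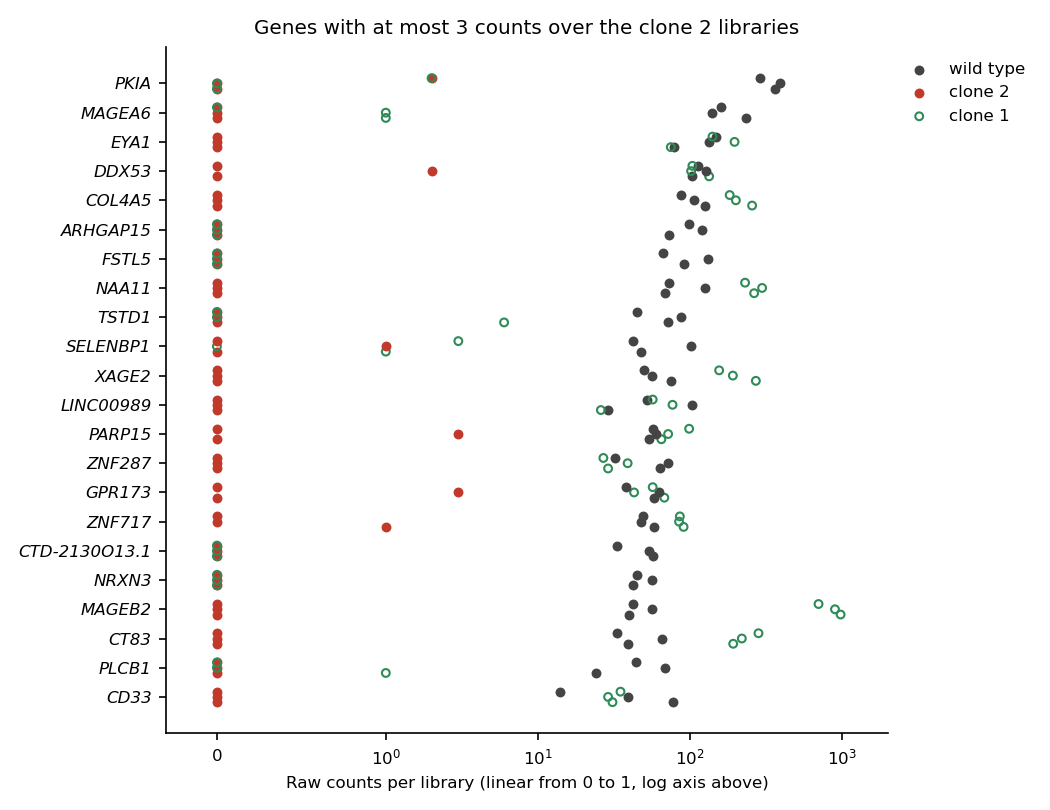
Raw counts per library (horizontal axis, linear from 0 to 1 and logarithmic above) of the 22 genes with at most 3 counts over the clone 2 libraries. Wild-type libraries are filled dark points, clone 2 libraries red points and clone 1 libraries open green points. Clone 1 had at most 3 counts for 7 of the genes and wild-type-like or higher counts for others, such as MAGEB2.

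Cancer-testis genes, which are normally read in germ cells and reappear in tumours, were among those 22: MAGEA6, DDX53, NAA11, XAGE2, MAGEB2 and CT83. Of all the listed cancer-testis genes 2 rose and 10 fell of 17 tested (median log2 fold change −5.55), and with genes at 0 counts set to their bound the median was −4.22. The share called was 70.6%, against 5.96% of all tested genes. MAGEB2 had 40, 56 and 42 counts in wild type and 0, 0 and 0 in clone 2 (at least 41.5-fold lower), and CT83 39, 66 and 33 against 0, 0 and 0 (at least 41.5-fold lower). NAA11, a testis-enriched N-terminal acetyltransferase, had 69, 126 and 73 counts against 0, 0 and 0 (at least 80.7-fold lower). DDX53, an RNA helicase, had 103, 127 and 113 against 0, 2 and 0 (ratio of wild type to clone 2 155, 95% counting interval 42.5 to 1284). MAGEA3 had 6.95, 6.73 and 7.24 CPM in wild type and 0.0619, 0.194 and 0.0474 CPM in clone 2, and MAGEA12 7.87, 9.52 and 7.39 CPM and 0, 0 and 0.474 CPM. CSAG1, which lies among the MAGEA genes, had 6.02, 4.53 and 5.18 CPM and 0, 0.291 and 0.285 CPM. XAGE2 and MAGEA6 had 0 and 0 counts in clone 2 against 181 and 535 in wild type. The summed level of the list was higher in clone 2, at 583, 504 and 465 CPM, than in wild type, at 287, 354 and 295 CPM. Most of that sum was SPANXB1, named here after its values were seen, which rose from a mean of 246 to 495 CPM (log2 fold change 1.009 with SE 0.16, adjusted p = 0.00229). SSX1 moved the same way, from 0.631, 0.508 and 0.654 CPM to 9.34, 4.65 and 3.65 CPM (log2 fold change 3.28 with SE 0.47, adjusted p = 0.00134). Genes of the MAGEA, XAGE, SSX and SPANX families have near-identical copies, so the split of reads among their members is uncertain. The calls of MAGEA3, MAGEA12, CSAG1 and SSX1 held without any 1 of the 9 libraries. That of SSX1 was lost with the mitochondrial covariate (adjusted p = 0.13).

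Other large decreases included immune and metabolic genes. TLR4, the receptor for bacterial lipopolysaccharide, had 7.48, 8.08 and 6.49 CPM in wild type and 0.247, 0 and 0.142 CPM in clone 2. DMD, which encodes dystrophin, had 4.81, 6.94 and 6.59 CPM and 0.186, 0 and 0.19 CPM. KYNU, the kynureninase of tryptophan breakdown, had 4.91, 7.02 and 6.29 CPM and 0.0619, 0.533 and 0.522 CPM (log2 fold change −3.95 with SE 0.54, adjusted p = 0.000618), and the neural transcription factor gene POU3F2 8.21, 4.82 and 4.88 CPM and 0.557, 0.242 and 0.569 CPM (log2 fold change −3.70 with SE 0.45, adjusted p = 0.000176). In each of these genes every clone 2 library lay far below the lowest wild-type library. SLCO4C1, an organic anion transporter, had 4.66, 14.9 and 10.5 CPM and 0.247, 0.484 and 0.712 CPM (log2 fold change −4.32, adjusted p = 0.0213). Leaving out any 1 of the 9 libraries kept the calls of TLR4, DMD, KYNU and POU3F2. SLCO4C1 lost its call without wild-type replicate 2 or clone 2 replicate 1, 2 or 3 (with adjusted p reaching 0.15). The threshold was also missed by SLCO4C1 in limma-voom (0.154).

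Among the largest increases were CNTN1, PSIP1, ZDHHC21, FRMD3, COBL and CNNM1. CNTN1, a cell adhesion molecule of neurons, had 17, 12.1 and 22.5 CPM in wild type and 41.6, 44.7 and 44.5 CPM in clone 2 (log2 fold change 1.34 with SE 0.22, adjusted p = 0.00228). PSIP1 encodes LEDGF, a chromatin-bound coactivator, and had 35.8, 48.1 and 55.1 CPM and 91.1, 129 and 142 CPM (log2 fold change 1.38 with SE 0.18, adjusted p = 0.000386). ZDHHC21, a palmitoyltransferase, had 8.16, 7.57 and 12 CPM and 23.5, 29.6 and 22.2 CPM (log2 fold change 1.44 with SE 0.20, adjusted p = 0.000635). FRMD3, a FERM domain protein, had 6.95, 6.26 and 6.94 CPM and 16.7, 20.5 and 17.8 CPM, and COBL, which nucleates actin filaments, 2.67, 4.87 and 4.98 CPM and 10.1, 14.2 and 21 CPM. CNNM1, of a family of magnesium transport mediators, had 9.33, 13.1 and 14.6 CPM and 23, 30.6 and 38.2 CPM. The clone 2 libraries were above all wild-type libraries for each of them. ESM1, a secreted proteoglycan, had 1.89, 0.423 and 3.17 CPM and 8.17, 9.2 and 17.4 CPM, JAKMIP1 1.26, 2.88 and 3.47 CPM and 7.79, 8.13 and 11.9 CPM, and MUSK, the agrin-responsive kinase of muscle, 0.972, 2.07 and 4.17 CPM and 6.12, 7.02 and 10.8 CPM. The cytokine gene IL24 had 2.19, 3.09 and 2.41 CPM and 12.7, 5.96 and 6.45 CPM, with clone 2 replicate 1 the highest. The scaffold gene CNKSR2 rose from 3.1 ± 0.87 to 9.64 ± 1.36 CPM, PROSER2 from 25.3 ± 4.82 to 70.8 ± 22.9, MAGEE1 from 2.32 ± 0.507 to 6.09 ± 0.699, and COL17A1, the transmembrane collagen of hemidesmosomes, from 5.7 ± 2.14 to 13.8 ± 1.29 (n = 3 each). CNTN1, PSIP1, ZDHHC21, FRMD3, COBL and CNNM1 passed without any 1 of the 9 libraries. With the mitochondrial covariate CNTN1, COBL and CNNM1 did not pass (adjusted p = 0.171, 0.0514 and 0.154). ESM1, JAKMIP1, MUSK, IL24, CNKSR2, PROSER2, MAGEE1 and COL17A1 each lost the call without 1 or more of wild-type replicate 1 or 2 or clone 2 replicate 2 or 3 (with adjusted p reaching 0.15). Calls were also lost by MUSK in the fit of the 6 libraries (0.0559).

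By difference in CPM, the genes that fell most were MT-CO1, TMSB4X, S100A4, ITGB4, JAG1, CD46, SELENOW, SAT1, SPINT2 and SPARC. TMSB4X, which encodes the actin monomer-binding thymosin beta 4, had 2012, 2714 and 1552 CPM in wild type and 1372, 1108 and 853 CPM in clone 2 (log2 fold change −0.91, adjusted p = 0.0348). SPINT2, a membrane inhibitor of the serine proteases that activate hepatocyte growth factor, had 139.8, 153 and 118 CPM and 44.8, 46.7 and 43.6 CPM (log2 fold change −1.61 with SE 0.14, adjusted p = 6.62e-06), with little spread among the clone 2 libraries. SAT1, the enzyme that starts polyamine breakdown, had 141, 185 and 80.2 CPM and 44.7, 47.9 and 31.1 CPM (log2 fold change −1.72 with SE 0.25, adjusted p = 0.00134), and SELENOW, a small selenoprotein, 222, 218 and 149 CPM and 123, 98.4 and 74.1 CPM (log2 fold change −0.998 with SE 0.19, adjusted p = 0.00838). CD46, a complement regulator of the cell surface, fell from 259 ± 27.5 to 157 ± 31.7 CPM (log2 fold change −0.72, adjusted p = 0.0255). The genes that rose most by this measure were HMGA1, EEF2, VIM, MYH9, ACTN1, MT2A, CTGF, FLNC, TLN1 and NCL. Several build the actin cytoskeleton and its anchors: TLN1, or talin, which links integrins to actin, had 203, 275 and 348 CPM and 501, 622 and 823 CPM (log2 fold change 1.23 with SE 0.21, adjusted p = 0.00309). MYH9, non-muscle myosin heavy chain, had 596, 762 and 933 CPM and 1356, 1359 and 1775 CPM, and the actin crosslinker FLNC 271, 221 and 459 CPM and 643, 558 and 908 CPM (log2 fold changes 0.97 and 1.15). HMGA1, an architectural chromatin protein, rose from 1742, 1820.1 and 2227 CPM to 3644, 3128 and 4088 CPM (log2 fold change 0.91), and EEF2, the translation elongation factor, from 1131 ± 244 to 2253 ± 372 CPM (0.99). The metallothionein gene MT2A rose from 573 ± 78.9 to 1023 ± 101 CPM (0.84), and NCL, nucleolin, from 545 ± 170.3 to 916 ± 138 (0.75). The calls of SPINT2, SAT1, SELENOW and TLN1 held without any 1 of the 9 libraries. With the mitochondrial covariate SAT1, SELENOW and TLN1 did not pass (adjusted p = 0.115, 0.223 and 0.108). Each of TMSB4X, CD46, MYH9, FLNC, HMGA1, EEF2, MT2A and NCL lost its call without at least 1 of these libraries: wild-type replicate 1 or 2, clone 1 replicate 1, 2 or 3 or clone 2 replicate 1 or 3 (with adjusted p reaching 0.196). An adjusted p above the threshold was also given by TMSB4X, CD46, HMGA1 and NCL in the fit of the 6 libraries (0.0519 to 0.102), by NCL with the level trend taken out (0.0851).

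**Figure D4:**
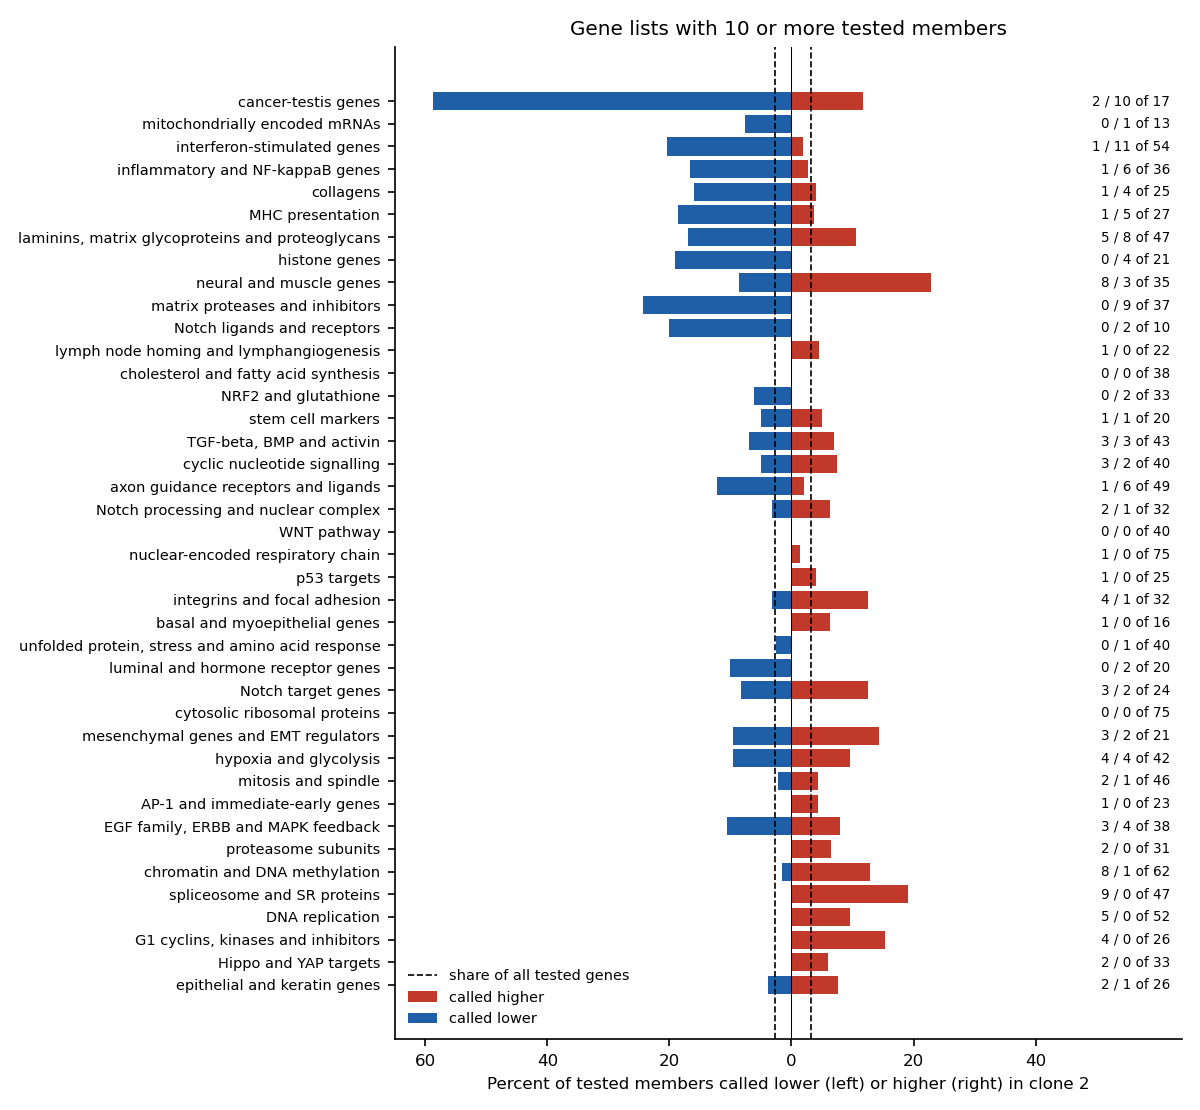
Percent of the tested members of each gene list that were called lower (left) or higher (right) in clone 2, ordered by median log2 fold change with the lowest at the top. Numbers at the right give members higher, members lower and members tested, and dashed lines mark the shares of all tested genes (3.21% higher and 2.75% lower).

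Genes of the extracellular matrix fell more often than they rose, where 3.21% of all tested genes rose and 2.75% fell. Of laminins, matrix glycoproteins and proteoglycans 5 rose and 8 fell of 47 tested (median log2 fold change −0.27, 8 and 15 with the replicate block), of collagens 1 rose and 4 fell of 25 tested (median log2 fold change −0.46, 1 and 11 with the replicate block), and of matrix proteases and their inhibitors 0 rose and 9 fell of 37 tested (median log2 fold change −0.22). SPARC, a collagen-binding glycoprotein, had 136, 74.8 and 76.8 CPM in wild type and 4.82, 3.97 and 3.13 CPM in clone 2 (log2 fold change −4.60 with SE 0.28, adjusted p = 6.49e-07). LUM, the proteoglycan lumican, had 17.4, 16.6 and 6.34 CPM and 0.124, 0.533 and 0.664 CPM (log2 fold change −4.86 with SE 0.47, adjusted p = 3.16e-05). LAMA5, a laminin chain, had 39.2, 91.8 and 49.9 CPM and 2.78, 10.6 and 7.5 CPM (log2 fold change −3.10 with SE 0.46, adjusted p = 0.00664), and its wild-type replicate 2 stood above the other wild-type libraries. COL18A1, the precursor of endostatin, fell from 68.3 ± 6.84 to 39.7 ± 6.49 CPM (−0.78, adjusted p = 0.00816), COL3A1 from 2.11 ± 0.304 to 0.48 ± 0.347 (−2.16, 0.0357), and the heparan sulfate proteoglycan SDC2 from 96.2 ± 14.1 to 54.2 ± 4.9 (−0.83, 0.0135). Among those that rose, GPC4, a glypican, had 26.7, 28.4 and 34.4 CPM and 58.7, 46.4 and 53 CPM (log2 fold change 0.82 with SE 0.15, adjusted p = 0.00656), and LAMB3, a chain of laminin-332, 182, 129 and 215 CPM and 368, 273 and 336 CPM (log2 fold change 0.89 with SE 0.18, adjusted p = 0.0118). All 9 called members of the protease list were lower, and with the replicate block 2 were higher and 11 lower. ADAM8, a sheddase, had 172, 194 and 156 CPM and 79.7, 95.2 and 72 CPM (log2 fold change −1.08 with SE 0.15, adjusted p = 0.000706). ADAMTS15 and ADAMTS9, secreted proteases of matrix proteoglycans, fell from 13.3 ± 1.7 to 5.53 ± 0.999 CPM and from 5.42 ± 0.313 to 2.12 ± 0.367 CPM (log2 fold changes −1.26 and −1.35). CTSS, a lysosomal cysteine protease, TIMP4, an inhibitor of matrix metalloproteinases, and CST7, an inhibitor of cathepsins, fell as well (−2.22, −1.83 and −1.18). POSTN, the matrix protein periostin, had 19.4, 2.37 and 1.51 CPM and 0.0619, 0.0484 and 0.0949 CPM (−6.69, adjusted p = 0.0372), where wild-type replicate 1 was far above the other 2. Summed fibroblast markers were also lower (24.5 to 56.2 CPM in wild type and 13.4 to 18.3 in clone 2). Most of that sum was COL1A1, a collagen gene, and LUM, a member of the matrix list, so it is no separate measure. COL1A1 and COL1A2 did not pass (log2 fold changes −0.77 and −0.21, adjusted p = 0.0535 and 0.901). The part of fibroblast markers in the result was not tested. Leaving out any 1 of the 9 libraries kept the calls of SPARC, LUM, COL18A1, GPC4, ADAM8 and ADAMTS15. LAMA5, COL3A1, SDC2, LAMB3, ADAMTS9, CTSS, TIMP4, CST7 and POSTN each lost the call without 1 or more of wild-type replicate 1, 2 or 3, clone 1 replicate 2 or clone 2 replicate 1, 2 or 3 (with adjusted p reaching 0.237). Also uncalled were COL3A1, TIMP4 and CST7 in the fit of the 6 libraries (0.0562 to 0.0707), CST7 after the GC content and length correction (0.0681), COL3A1, CST7 and POSTN with the level trend taken out (0.0764 to 0.0895), POSTN in limma-voom (0.287).

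Mesenchymal and epithelial lists each held genes that rose and genes that fell. Among mesenchymal markers and transcription factors of epithelial-mesenchymal transition, 3 rose and 2 fell of 21 tested (median log2 fold change 0.11, 5 and 4 with the replicate block, 0.20 after the GC content and length correction). S100A4, a calcium-binding protein of motile cells, had 206, 279 and 125 CPM in wild type and 53.6, 38.5 and 21.3 CPM in clone 2 (log2 fold change −2.43 with SE 0.33, adjusted p = 0.00208), and SPARC is given above. VIM, the intermediate filament vimentin, had 1079, 1040.4 and 1536 CPM and 1823, 1773 and 2301 CPM (0.69, adjusted p = 0.0491), and MSN, moesin, which ties actin to the membrane, 352, 369 and 534 CPM and 646, 657 and 903 CPM (0.81, 0.0232). CDH11, a mesenchymal cadherin, rose from 85.6 ± 15.7 to 137 ± 18.8 CPM (0.68, 0.0313). Of epithelial and keratin genes, 2 rose and 1 fell of 26 tested (median log2 fold change 0.30, 8 and 5 with the replicate block). ITGB4, the integrin chain of hemidesmosomes, had 253, 268 and 232 CPM and 123, 111 and 93.6 CPM (log2 fold change −1.20 with SE 0.17, adjusted p = 0.000706), while KRT15, a basal keratin, rose from 4.81 ± 0.93 to 8.73 ± 1.22 CPM (0.86, 0.0383). Of integrins and focal adhesion genes, 4 rose and 1 fell of 32 tested (median log2 fold change 0.04, 6 and 4 with the replicate block, −0.10 with the level trend taken out). TNS1, tensin, had 20.5, 19.6 and 27.3 CPM and 43.5, 41.7 and 55 CPM (log2 fold change 1.06 with SE 0.17, adjusted p = 0.0025), and ZYX, zyxin, rose from 274 ± 18.6 to 404 ± 50.6 CPM and ACTN1, alpha-actinin, from 884 ± 158 to 1417 ± 201 (0.56 and 0.68). Of lymph node homing and lymphangiogenesis genes, 1 rose and 0 fell of 22 tested (median log2 fold change −0.14, 2 and 3 with the replicate block). This share is near that of all tested genes (5.96%) and is no result about the list. The member that rose was PDPN, podoplanin, a glycoprotein of lymphatic endothelium and invasive tumour cells, with 31, 26.3 and 24.8 CPM and 79.2, 55.8 and 50.9 CPM (log2 fold change 1.18 with SE 0.17, adjusted p = 0.00109). S100A4, ITGB4, TNS1 and PDPN passed without any 1 of the 9 libraries. With the mitochondrial covariate S100A4 and ITGB4 did not pass (adjusted p = 0.0738 and 0.0597). Each of VIM, MSN, CDH11, KRT15, ZYX and ACTN1 lost its call without at least 1 of these libraries: wild-type replicate 1, 2 or 3, clone 1 replicate 1, 2 or 3 or clone 2 replicate 2 or 3 (with adjusted p reaching 0.214). The threshold was also missed by VIM, MSN, CDH11, KRT15, ZYX and ACTN1 in the fit of the 6 libraries (0.0634 to 0.115), by VIM, CDH11, ZYX and ACTN1 with the level trend taken out (0.087 to 0.1), by VIM and ZYX with RLE size factors (0.0506 to 0.0529).

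More interferon-stimulated genes fell than rose in clone 2, and most of the 54 did not pass. Of these, 1 rose and 11 fell of 54 tested (median log2 fold change −0.67, 2 and 24 with the replicate block), against 3.21% and 2.75% of all tested genes, and 8 of the 54 members had a positive log2 fold change. IFI27 had 16.9, 19.2 and 12.6 CPM in wild type and 2.72, 1.89 and 1.33 CPM in clone 2 (log2 fold change −3.05 with SE 0.28, adjusted p = 1.14e-05). OASL, an oligoadenylate synthetase-like antiviral protein, had 18, 8.46 and 7.19 CPM and 1.48, 0.533 and 0.949 CPM (log2 fold change −3.53 with SE 0.52, adjusted p = 0.00241), and BST2, or tetherin, which holds budding virus at the cell surface, 21.9, 35.4 and 18.2 CPM and 7.55, 8.72 and 3.18 CPM (log2 fold change −1.96 with SE 0.33, adjusted p = 0.00411). IFIT3, an antiviral RNA-binding complex member, fell from 25.2 ± 5.89 to 7.2 ± 1.14 CPM (−1.81, adjusted p = 0.00547), and DHX58, an RNA sensor of the RIG-I family, from 2.49 ± 0.772 to 0.451 ± 0.247 (−2.43, 0.0162). DDX58, which encodes RIG-I itself, rose from 47, 51.5 and 63.7 CPM to 81.7, 103 and 127 CPM (log2 fold change 0.94 with SE 0.17, adjusted p = 0.00491), and the groups did not overlap. The median deviation of the 54 genes from the wild-type mean was −0.03, 0.17 and −0.11 on the log2 scale (CPM + 0.5) in the wild-type libraries and −0.76, −0.47 and −0.55 in those of clone 2. The calls of IFI27, OASL, BST2 and DDX58 held without any 1 of the 9 libraries. IFIT3 and DHX58 each lost the call without 1 or more of wild-type replicate 1 or 2 or clone 2 replicate 3 (with adjusted p reaching 0.0778).

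Inflammatory genes and genes of antigen presentation followed in part, where 3.21% of all tested genes rose and 2.75% fell. Of inflammatory and NF-kappaB genes 1 rose and 6 fell of 36 tested (median log2 fold change −0.54, 1 and 12 with the replicate block), and of genes of MHC presentation 1 rose and 5 fell of 27 tested (median log2 fold change −0.28, 3 and 12 with the replicate block). IL7R, the receptor chain for IL7, had 57.4, 42.6 and 58.1 CPM in wild type and 26.7, 13.2 and 12.2 CPM in clone 2 (log2 fold change −1.61 with SE 0.29, adjusted p = 0.00764). IL1B, the gene of interleukin-1 beta, fell from 4.55 ± 1.4 to 1.2 ± 0.7 CPM (−1.94, adjusted p = 0.0166), CD14, a coreceptor of TLR4, from 2.49 ± 1.52 to 0.318 ± 0.126 (−2.93, 0.00938), and NFKBIZ, a nuclear regulator of NF-kappaB, from 21.9 ± 4.71 to 11.3 ± 2.73 (−0.95, 0.0207). HLA-DPA1, a chain of an MHC class II molecule, had 2.91, 3.6 and 2.06 CPM and 0.371, 0.291 and 0.474 CPM (log2 fold change −2.90 with SE 0.48, adjusted p = 0.00299). CIITA, the coactivator of class II genes, fell from 8.67 ± 2.59 to 4.09 ± 0.788 CPM and HLA-DMA, which helps load class II peptides, from 7.84 ± 2.28 to 2.99 ± 1.02 (−1.08 and −1.39). PSMB9, an immunoproteasome subunit, and ERAP2, a peptide-trimming protease, fell as well (−1.05 and −1.13). CD274, which encodes the checkpoint ligand PD-L1, rose from 35.5, 23.9 and 32.5 CPM to 77.2, 58.8 and 56.4 CPM (log2 fold change 1.07 with SE 0.20, adjusted p = 0.00576). The summed leukocyte markers were also lower (1.89 to 4.53 CPM in wild type and 0.186 to 0.533 in clone 2). They were mostly CD14, which is itself a member of the inflammatory list, so the sum is no separate measure. PTPRC, the pan-leukocyte marker, was at most 0.309 CPM on average. Leaving out any 1 of the 9 libraries kept the calls of IL7R, HLA-DPA1 and CD274. Each of IL1B, CD14, NFKBIZ, CIITA, HLA-DMA, PSMB9 and ERAP2 lost its call without at least 1 of these libraries: wild-type replicate 1 or 2, clone 1 replicate 2 or 3 or clone 2 replicate 2 or 3 (with adjusted p reaching 0.168). An adjusted p above the threshold was also given by CIITA, PSMB9 and ERAP2 in the fit of the 6 libraries (0.0662 to 0.0792), by PSMB9 and ERAP2 with the level trend taken out (0.0577 to 0.0694).

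Among growth factor pathways, genes of 4 ligands of the EGF receptor fell. In the EGF, ERBB and MAPK feedback list 3 rose and 4 fell of 38 tested (median log2 fold change 0.13, 9 and 5 with the replicate block, 0.21 after the GC content and length correction, 0.0041 with the level trend taken out), and the members that fell were all ligand genes. EREG, epiregulin, had 45.1, 68.8 and 45.1 CPM in wild type and 21.6, 19.5 and 12.8 CPM in clone 2 (log2 fold change −1.56 with SE 0.22, adjusted p = 0.000678), and AREG, amphiregulin, 14, 23.3 and 9.91 CPM and 7.18, 4.31 and 3.37 CPM (log2 fold change −1.68 with SE 0.33, adjusted p = 0.0105). EGF fell from 4.08 ± 1.39 to 1.27 ± 0.245 CPM (−1.69, adjusted p = 0.0133) and BTC, betacellulin, from 2.47 ± 1.09 to 0.613 ± 0.441 (−2.01, 0.0442). All 4 genes lie on the long arm of chromosome 4. DUSP1, a phosphatase of MAP kinases, rose from 10.1 ± 1.83 to 20 ± 4.37 CPM (0.98, 0.0171), and HRAS from 85.8 ± 4.22 to 122 ± 18.6 (0.51, 0.0442). Of AP-1 and immediate-early genes 1 rose and 0 fell of 23 tested (median log2 fold change 0.13, 4 and 0 with the replicate block, 0.23 after the GC content and length correction), and the member was JUN, with 169, 148 and 198 CPM and 284, 264 and 338 CPM (log2 fold change 0.78 with SE 0.15, adjusted p = 0.00842). The share called was 18.4% in the EGF list and 4.35% among AP-1 genes, against 5.96% of all tested genes. The AP-1 share is near that value and is no result about the list. The call of EREG held without any 1 of the 9 libraries. AREG, EGF, BTC, DUSP1, HRAS and JUN each lost the call without 1 or more of wild-type replicate 1, 2 or 3, clone 1 replicate 1, 2 or 3 or clone 2 replicate 1 or 3 (with adjusted p reaching 0.206). Also uncalled were BTC and HRAS in the fit of the 6 libraries (0.0938 to 0.1), BTC and HRAS with the level trend taken out (0.0694 to 0.102), HRAS with RLE size factors (0.0529).

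Of the TGF-beta, BMP and activin genes, 3 rose and 3 fell of 43 tested (median log2 fold change −0.01, 7 and 6 with the replicate block, 0.05 after the GC content and length correction). FSTL1, a secreted follistatin-like glycoprotein, had 167, 97.9 and 139 CPM in wild type and 76, 60.6 and 65.2 CPM in clone 2 (log2 fold change −0.999 with SE 0.18, adjusted p = 0.00582). BMP1, a procollagen protease, fell from 34.9 ± 8.68 to 20.4 ± 4.57 CPM and the receptor gene BMPR1B from 17.6 ± 3.35 to 11.1 ± 1.41 (−0.77 and −0.67). NOG, noggin, and FST, follistatin, secreted antagonists of BMP and activin, rose from 87.9 ± 6.73 to 136 ± 29.2 and from 60.2 ± 11.6 to 91.6 ± 15 CPM (0.63 and 0.61), and the corepressor gene SKI rose as well (0.58). Of Hippo and YAP targets, 2 rose and 0 fell of 33 tested (median log2 fold change 0.29, 8 and 0 with the replicate block, 0.17 with the level trend taken out). CTGF, a matricellular YAP target, had 404, 346 and 609.9 CPM and 774, 721 and 1038 CPM (0.90, adjusted p = 0.032), and WWC1, the Hippo regulator KIBRA, rose from 31.2 ± 8.3 to 54.9 ± 8.87 CPM (0.82, 0.022). In the WNT pathway, 0 rose and 0 fell of 40 tested (median log2 fold change 0.01, 4 and 6 with the replicate block, −0.01 with RLE size factors, 0.07 after the GC content and length correction, −0.00016 with the level trend taken out), 11 members had an unadjusted p under 0.05, and the smallest p was that of WNT7B (log2 fold change 0.50, adjusted p = 0.0742, and 0.0132 with the block). The Hippo share, like that of AP-1 genes, is near the 5.96% of all tested genes. FSTL1 kept its call without any 1 of the 9 libraries. Each of BMP1, BMPR1B, NOG, FST, SKI, CTGF and WWC1 lost its call without at least 1 of these libraries: wild-type replicate 1, 2 or 3, clone 1 replicate 1, 2 or 3 or clone 2 replicate 1, 2 or 3 (with adjusted p reaching 0.18). The threshold was also missed by BMP1, BMPR1B, NOG, FST, SKI, CTGF and WWC1 in the fit of the 6 libraries (0.0505 to 0.0904), by BMPR1B after the GC content and length correction (0.0641), by BMPR1B, NOG, FST and CTGF with the level trend taken out (0.0533 to 0.0808), by BMPR1B in limma-voom (0.0532).

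The next 3 lists are to be read against all tested genes, of which 3.21% rose and 2.75% fell. Of cyclic nucleotide signalling genes, 3 rose and 2 fell of 40 tested (median log2 fold change −0.0035, 0.02 after the GC content and length correction, 0.01 with the level trend taken out). Beside PKIA, given above, its relative PKIB fell from 4.46 ± 2.09 to 1.52 ± 0.41 CPM (−1.56), while the catalytic and regulatory subunit genes of protein kinase A, PRKACA, PRKAR2A and PRKAR1A, rose from 79.9 ± 7.39 to 116 ± 6.93, from 132 ± 29.6 to 206 ± 26.6 and from 199 ± 35.2 to 297 ± 14.8 CPM (0.54, 0.65 and 0.58). Of axon guidance genes, 1 rose and 6 fell of 49 tested (median log2 fold change −0.0011, 2 and 9 with the replicate block, 0.01 after the GC content and length correction, −0.11 with the level trend taken out). UNC5C, a netrin receptor, had 6.9, 11.1 and 9.45 CPM in wild type and 1.36, 3.15 and 2.09 CPM in clone 2 (log2 fold change −2.04 with SE 0.33, adjusted p = 0.00241), and PLXND1, a semaphorin receptor, 45.2, 63.3 and 45.2 CPM and 23.4, 27.2 and 28.3 CPM (log2 fold change −0.96 with SE 0.17, adjusted p = 0.00453). SEMA4C, EFNA1 and PLXNB3 fell too (−0.70, −1.36 and −1.04), and ROBO4, a Slit receptor family member, rose (0.69). Of neural and muscle genes, 8 rose and 3 fell of 35 tested (median log2 fold change −0.24, 0.10 after the GC content and length correction, −0.0032 with the level trend taken out). GRIK2, a kainate receptor subunit, had 0.972, 1.18 and 0.603 CPM in wild type and no counts in clone 2. Leaving out any 1 of the 9 libraries kept the calls of PKIA, UNC5C, PLXND1 and GRIK2. PKIB, PRKACA, PRKAR2A, PRKAR1A, SEMA4C, EFNA1, PLXNB3 and ROBO4 each lost the call without 1 or more of wild-type replicate 1 or 2, clone 1 replicate 2 or 3 or clone 2 replicate 1, 2 or 3 (with adjusted p reaching 0.225). Calls were also lost by PKIB, PRKACA, PRKAR2A, PRKAR1A, PLXNB3 and ROBO4 in the fit of the 6 libraries (0.0598 to 0.0886), by PKIB after the GC content and length correction (0.0546), by PKIB, PRKACA, PRKAR2A, PRKAR1A and ROBO4 with the level trend taken out (0.0619 to 0.0755), by PLXNB3 in limma-voom (0.0562).

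The lists of splicing, chromatin, DNA replication and G1 genes each held more genes that rose than genes that fell, and the increases were small. Over all tested genes 3.21% rose and 2.75% fell. Of spliceosome and SR protein genes 9 rose and 0 fell of 47 tested (median log2 fold change 0.20, 0.32 after the GC content and length correction, 0.07 with the level trend taken out), of chromatin and DNA methylation genes 8 rose and 1 fell of 62 tested (median log2 fold change 0.20, 0.08 with the level trend taken out), and of DNA replication genes 5 rose and 0 fell of 52 tested (median log2 fold change 0.23, 17 and 1 with the replicate block, 0.11 with the level trend taken out). PRPF6, a component of the tri-snRNP, had 66, 78.2 and 101 CPM in wild type and 139, 141 and 173 CPM in clone 2 (log2 fold change 0.89 with SE 0.16, adjusted p = 0.00586), and SMARCA2, an ATPase of the SWI/SNF complex, 41.6, 43.5 and 50.7 CPM and 70.3, 90.8 and 91.4 CPM (log2 fold change 0.90 with SE 0.15, adjusted p = 0.00241). Its paralogue SMARCA4 rose from 157 ± 26.1 to 263 ± 35.7 CPM, and UHRF1 and DNMT1, which maintain DNA methylation, from 174 ± 30.9 to 291 ± 24.1 and from 265 ± 63.8 to 440.5 ± 64 (0.74, 0.74 and 0.74). SF3A1, EFTUD2, SF3A2, PRPF31 and SF3B4, further splicing factors, had log2 fold changes between 0.53 and 0.79. The helicase subunit genes MCM2 and MCM7 rose from 105 ± 21 to 174 ± 22.4 and from 236 ± 28.2 to 353 ± 30.1 CPM, and the checkpoint mediator CLSPN, the flap nuclease FEN1 and the polymerase gene POLA1 rose as well (0.69, 0.59 and 0.69). Of cyclins, kinases and inhibitors of G1, 4 rose and 0 fell of 26 tested (median log2 fold change 0.28, 8 and 0 with the replicate block, 0.16 with the level trend taken out), with CDK6 (0.69) and E2F2 (0.65) beside CCND1 and CDKN1A. Of mitotic genes, 2 rose and 1 fell of 46 tested (median log2 fold change 0.13, 6 and 3 with the replicate block, 0.27 after the GC content and length correction, 0.01 with the level trend taken out): the spindle factor TPX2 and the chromosomal passenger INCENP rose (0.67 and 0.48) and the kinetochore gene CENPK fell (−0.58). The mitotic share of 3 in 46 is near the 5.96% of all tested genes. In the fit of the 6 libraries 1 splicing, 3 chromatin, 0 replication, 1 G1 and 0 mitotic genes rose. With the level trend taken out 3, 3, 2, 2 and 0 rose, and 1 chromatin, 1 replication and 4 mitotic genes fell. PRPF6 and SMARCA2 passed without any 1 of the 9 libraries. Each of SMARCA4, UHRF1, DNMT1, SF3A1, EFTUD2, SF3A2, PRPF31, SF3B4, MCM2, MCM7, CLSPN, FEN1, POLA1, CDK6, E2F2, TPX2, INCENP and CENPK lost its call without at least 1 of these libraries: wild-type replicate 1, 2 or 3, clone 1 replicate 1, 2 or 3 or clone 2 replicate 2 or 3 (with adjusted p reaching 0.218). An adjusted p above the threshold was also given by DNMT1, SF3A1, EFTUD2, SF3A2, PRPF31, SF3B4, MCM2, MCM7, CLSPN, FEN1, POLA1, E2F2, TPX2, INCENP and CENPK in the fit of the 6 libraries (0.0504 to 0.101), by CENPK after the GC content and length correction (0.208), by DNMT1, SF3A2, PRPF31, SF3B4, MCM7, FEN1, POLA1, TPX2 and INCENP with the level trend taken out (0.0529 to 0.117), by INCENP with RLE size factors (0.0529).

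Histone genes fell more often than they rose. Of these, 0 rose and 4 fell of 21 tested (median log2 fold change −0.27, −0.10 after the GC content and length correction), against 3.21% and 2.75% of all tested genes. HIST1H1C, a linker histone, had 35.6, 34.9 and 34.8 CPM in wild type and 15, 17.5 and 17.9 CPM in clone 2 (log2 fold change −1.06 with SE 0.15, adjusted p = 0.000939), and HIST1H2AC 28.6, 24.7 and 28.8 CPM and 13.9, 10.9 and 11.8 CPM (log2 fold change −1.17 with SE 0.18, adjusted p = 0.00134). HIST1H2BK and HIST1H2BD fell from 49.6 ± 5.49 to 28 ± 1.37 and from 9.69 ± 0.693 to 5.31 ± 0.488 CPM (−0.83 and −0.87). Histone genes share near-identical coding sequence, so the split of reads among them is uncertain. The calls of HIST1H1C, HIST1H2AC and HIST1H2BK held without any 1 of the 9 libraries. HIST1H2BD lost its call without wild-type replicate 1 or 2 or clone 2 replicate 2 or 3 (with adjusted p reaching 0.119). Also uncalled were HIST1H2BD in the fit of the 6 libraries (0.0585), HIST1H2BK and HIST1H2BD after the GC content and length correction (0.0503 to 0.0562), HIST1H2BD with the level trend taken out (0.0561).

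Genes of hypoxia and glycolysis moved in both directions, and the stress, NRF2, lipid synthesis and p53 lists held few calls. Of hypoxia and glycolysis genes, 4 rose and 4 fell of 42 tested (median log2 fold change 0.13, −0.02 with the level trend taken out). Those that fell included CA9 and CA12, carbonic anhydrases of the cell surface, with 13.3, 13.9 and 15.9 CPM in wild type and 5.44, 5.33 and 7.21 CPM in clone 2 for CA12 (log2 fold change −1.26 with SE 0.23, adjusted p = 0.00498) and 16.3 ± 5.84 against 4.95 ± 1.58 CPM for CA9. EPAS1, which encodes HIF-2 alpha, had 17.5, 30.6 and 25.6 CPM and 12.7, 10.9 and 11.2 CPM (log2 fold change −1.08 with SE 0.20, adjusted p = 0.00684). The glycolytic genes HK2, HK1 and GPI rose from 86.4 ± 27 to 161 ± 38.9, from 157 ± 38.1 to 258 ± 47.6 and from 404 ± 73.3 to 643 ± 53.6 CPM (0.90, 0.72 and 0.67). SLC7A11, the cystine importer, had 90.9, 79.8 and 126 CPM and 36.7, 37.3 and 46.1 CPM (log2 fold change −1.30 with SE 0.19, adjusted p = 0.00123) and was the member called in the stress and amino acid list, where 0 rose and 1 fell of 40 tested (median log2 fold change 0.06, 2 and 4 with the replicate block, 0.17 after the GC content and length correction, −0.08 with the level trend taken out). Of NRF2 and glutathione genes, 0 rose and 2 fell of 33 tested (median log2 fold change −0.03, 1 and 3 with the replicate block, 0.02 after the GC content and length correction), which were AKR1C3 and NQO1 (−0.77 and −0.72). Of cholesterol and fatty acid synthesis genes, 0 rose and 0 fell of 38 tested (median log2 fold change −0.11, 2 and 6 with the replicate block, −0.05 after the GC content and length correction, −0.21 with the level trend taken out), 7 members had an unadjusted p under 0.05, and ACLY, the citrate lyase, came nearest (0.64, adjusted p = 0.0576, and 0.00425 with the block). Of p53 targets, 1 rose and 0 fell of 25 tested (median log2 fold change 0.03, 1 and 2 with the replicate block, 0.13 after the GC content and length correction, 0.06 with the level trend taken out), and that member was CDKN1A. The shares in the stress, NRF2 and p53 lists are close to or below the 5.96% of all tested genes, so they are not results about these lists. Leaving out any 1 of the 9 libraries kept the calls of CA12, EPAS1 and SLC7A11. Each of CA9, HK2, HK1, GPI, AKR1C3 and NQO1 lost its call without at least 1 of these libraries: wild-type replicate 1, 2 or 3, clone 1 replicate 2 or 3 or clone 2 replicate 2 or 3 (with adjusted p reaching 0.178). The threshold was also missed by HK2, HK1, GPI, AKR1C3 and NQO1 in the fit of the 6 libraries (0.0584 to 0.0814), by HK1 and GPI with the level trend taken out (0.0593 to 0.0768).

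Of the 13 mitochondrially encoded mRNAs all had negative log2 fold changes and 1 passed. In this list 0 rose and 1 fell of 13 tested (median log2 fold change −0.94, 0 and 9 with the replicate block). MT-CO1, a subunit of cytochrome oxidase, had 5345, 7531 and 3564 CPM in wild type and 1827, 3447 and 2034 CPM in clone 2 (−1.17, adjusted p = 0.0451), and wild-type replicate 3 was near clone 2 replicate 2. Nuclear-encoded respiratory chain genes showed nearly no calls, as 1 rose and 0 fell of 75 tested (median log2 fold change 0.02, 4 and 1 with the replicate block, −0.0026 with RLE size factors, 0.12 after the GC content and length correction, −0.11 with the level trend taken out). Of cytosolic ribosomal protein genes, 0 rose and 0 fell of 75 tested (median log2 fold change 0.09, 0 and 1 with the replicate block, 0.15 after the GC content and length correction, −0.15 with the level trend taken out), 2 members had an unadjusted p under 0.05, and RPS3A had the smallest p (−0.65, adjusted p = 0.078, and 0.0143 with the block). Of proteasome genes, 2 rose and 0 fell of 31 tested (median log2 fold change 0.17, 10 and 1 with the replicate block, 0.30 after the GC content and length correction, 0.01 with the level trend taken out), with PSMD11 and PSMC5 higher (0.61 and 0.55). The shares called in the mitochondrially encoded (7.69%) and proteasome (6.45%) lists are near the 5.96% of all tested genes. Those of the respiratory chain (1.33%) and ribosomal protein lists are below it. The counts of calls are therefore no results about these lists. MT-CO1, PSMD11 and PSMC5 each lost the call without 1 or more of wild-type replicate 1 or 2, clone 1 replicate 1, 2 or 3 or clone 2 replicate 1 or 3 (with adjusted p reaching 0.233). Calls were also lost by MT-CO1, PSMD11 and PSMC5 in the fit of the 6 libraries (0.0728 to 0.098), by MT-CO1 after the GC content and length correction (0.0544), by MT-CO1, PSMD11 and PSMC5 with the level trend taken out (0.0609 to 0.17), by PSMC5 with RLE size factors (0.0529).

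Among 834 long noncoding RNAs tested, 10 were higher and 17 lower, a smaller share than the 5.96% of all tested genes. LINC00989, which lies near NAA11 on chromosome 4, had 29, 103 and 52 counts in wild type and 0, 0 and 0 in clone 2 (at least 55.4-fold lower), and LINC01285 had 1.55, 4.19 and 2.51 CPM and 0, 0 and 0.19 CPM (log2 fold change −5.21 with SE 0.80, adjusted p = 0.00186). LINC00665 rose from 3.45, 4.19 and 3.92 CPM to 15, 8.86 and 13 CPM (log2 fold change 1.67 with SE 0.34, adjusted p = 0.0119), and AFAP1-AS1, an antisense transcript of AFAP1, from 62.8, 66.4 and 93.4 CPM to 136, 117 and 142 CPM (log2 fold change 0.83 with SE 0.16, adjusted p = 0.00838). LINC01929, HCP5 and SNHG18 fell (−2.69, −2.05 and −2.01), and DANCR rose (0.67). The strand setting of the counting is unknown here. Reads of an antisense gene and its partner cannot be told apart. The calls of LINC00989 and LINC01285 held without any 1 of the 9 libraries. Each of LINC00665, AFAP1-AS1, LINC01929, HCP5, SNHG18 and DANCR lost its call without at least 1 of these libraries: wild-type replicate 1 or 2, clone 1 replicate 1, 2 or 3 or clone 2 replicate 1 or 3 (with adjusted p reaching 0.223). An adjusted p above the threshold was also given by DANCR in the fit of the 6 libraries (0.109), by DANCR with the level trend taken out (0.0829), by DANCR with RLE size factors (0.0529).

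The calls were unevenly spread over the genome. In 269 stretches of 10 Mb with 20 or more tested genes, the 3 with the highest median log2 fold change all lay on the short arm of chromosome 9 (0.83, 0.79 and 0.58), and the highest elsewhere was 0.33. From the start of chromosome 9 to 40 Mb, 57 of 148 tested genes rose and 1 fell, and 129 had a positive log2 fold change, with a median of 0.64. The median deviation of these genes from the wild-type mean was 0.56, 0.60 and 0.51 on the log2 scale (CPM + 0.5) in the clone 2 libraries, −0.02, 0.01 and 0.04 in wild type and −0.11, −0.10 and −0.08 in clone 1. On the rest of chromosome 9, 6 of 496 genes rose and 15 fell (median −0.02), against 3.21% and 2.75% of all tested genes. TLN1, PSIP1, ZDHHC21, DDX58, CD274 and SMARCA2, described above, lie in the short-arm stretch, and CA9 was its member that fell. VCP, the AAA ATPase of protein quality control (314 ± 72.3 and 672 ± 79.8 CPM, n = 3 each, log2 fold change 1.10), DNAJA1, a heat shock cochaperone (222 ± 47.6 and 445 ± 44.9, 1.005), and UHRF2, a relative of UHRF1 (44.8 ± 2.79 and 87.2 ± 2.14, 0.96), rose too (adjusted p = 0.00234, 0.00309 and 0.000386). With 27 genes higher without wild-type replicate 2, 34 without clone 2 replicate 3 and 8 with the mitochondrial covariate, the count depended on the fit.

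On the long arm of chromosome 4, from 60 to 190 Mb, no gene rose and 50 of 390 fell (median −0.31, and −0.19 after the GC content and length correction). The clone 2 libraries had median deviations of −0.29, −0.26 and −0.31, the wild-type libraries −0.06, −0.02 and 0.05, and the clone 1 libraries −0.10, −0.09 and −0.08. EREG, AREG, EGF, BTC, UNC5C, BMPR1B, SLC7A11, NAA11, FSTL5 and LINC00989 lie there, as does CYP4V2, a fatty acid hydroxylase (34.5 ± 8.21 and 13.5 ± 2.71 CPM, n = 3 each, log2 fold change −1.36, adjusted p = 0.000618). Over chromosome 4 as a whole, 29 of 608 tested genes rose and 54 fell, against 3.21% and 2.75% of all tested genes. The genes that rose lay outside the stretch, and the stretches of 10 Mb before 60 Mb all had positive medians (0.05 to 0.31). On chromosome 10 from 110 to 140 Mb, no gene rose and 16 of 127 fell (median −0.37), among them ADAM8 and AFAP1L2, an adaptor of Src signalling (46.7 ± 6.44 and 18.9 ± 2.62 CPM, log2 fold change −1.30, adjusted p = 0.00838). Median deviations of −0.29, −0.30 and −0.36 in clone 2 stood against 0.23, 0.25 and 0.18 in clone 1, so the clones lay on opposite sides of wild type. In these stretches 20, 20 and 13 genes of chromosome 4 and 7, 6 and 4 of chromosome 10 were lower without wild-type replicate 1, wild-type replicate 2 or clone 2 replicate 3, and 26 and 6 in the fit of 6 libraries. With the replicate block, 6 rose and 96 fell on chromosome 4 and 3 rose and 31 fell on chromosome 10. Without clone 1 replicate 2, 10 fell on chromosome 10, and 27 did with no filter on low counts. With the mitochondrial covariate 5 and 1 fell. The stretches were chosen after their values were seen and carry no test, and DNA copy number was not measured.

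**Figure D5:**
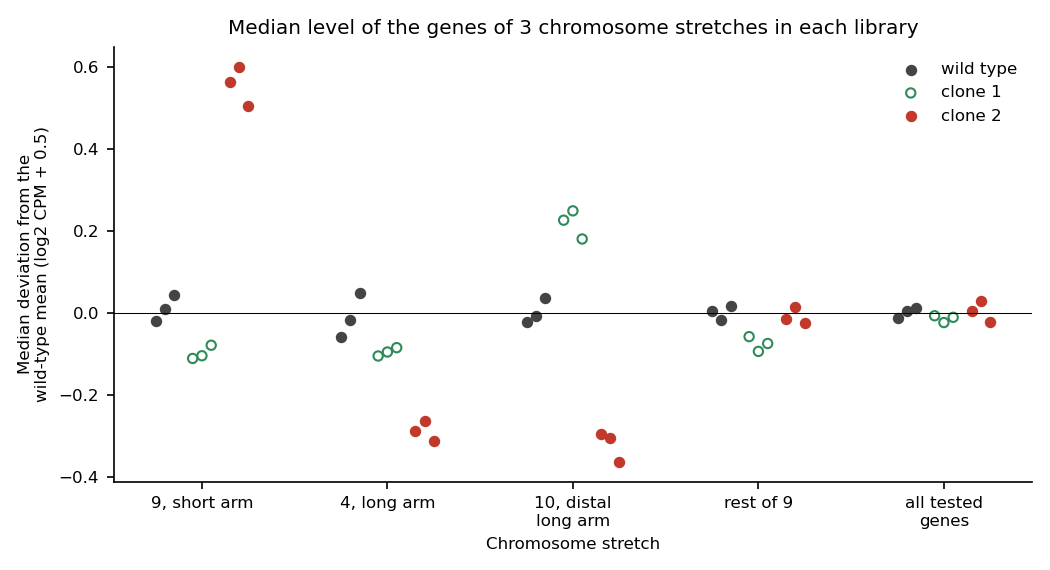
Median deviation from the wild-type mean (vertical axis, log2 of CPM + 0.5) of the tested genes of each chromosome stretch (horizontal axis), with 1 point per library. The clone 2 libraries sit between 0.51 and 0.60 on the short arm of chromosome 9 and below all other libraries in the stretches of chromosomes 4 and 10, while the rest of chromosome 9 and all tested genes lie near 0 in all 3 groups.

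Clone 2 differed from clone 1 in more genes than from wild type: 5733 of 16921 (33.9%) passed. The count was 391 with the mitochondrial covariate, 3778 without clone 1 replicate 3 and 3639 without clone 2 replicate 3. Both clones carry edited JAG1, at 110.3, 80.8 and 92.3 CPM in clone 1 (log2 difference −0.50, adjusted p = 0.0398), so these values show where clone 2 stands apart from another knockout line. The clone 2 and clone 1 comparisons with wild type share the wild-type libraries, and the comparisons of clone 2 with wild type and with clone 1 share the clone 2 libraries, so genes picked for their clone 2 values tend to differ in both. CNTN1 had 0.0518, 0.285 and 0.111 CPM in clone 1, far below wild type, and 41.6, 44.7 and 44.5 CPM in clone 2, above it (log2 difference 8.09, adjusted p = 7.09e-10). MAGEB2 had 50.9, 42.9 and 39.1 CPM in clone 1 and no counts in clone 2 (adjusted p = 7.09e-10). COL4A5 had 13.3, 9.56 and 10.2 CPM in clone 1, and S100A4 184, 174 and 205 CPM, close to wild type (log2 difference −2.31, adjusted p = 0.000439). SPARC was low in both, at 6.73, 4.04 and 4.07 CPM in clone 1 (log2 difference −0.32, adjusted p = 0.397), and so was HES1, at 24.8, 24.9 and 23.1 CPM (−0.02, 0.949). HES4 had 7.3, 6.32 and 6.57 CPM in clone 1, between the other groups on average (−0.74, adjusted p = 0.0507), and ITGB4 108, 166 and 139 CPM (−0.33, 0.137). These differences from clone 1 that missed the threshold do not show that the clones were alike. VIM had 926, 838 and 769.9 CPM in clone 1 against 1823, 1773 and 2301 CPM in clone 2 (1.22, 0.000394), and MCM2 69.7, 63.5 and 49 CPM against 168, 155 and 199 CPM (1.52, 3.03e-05). Of the 22 nearly absent genes, 13 differed between the clones, and 7 had at most 3 counts in clone 1 as well.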

How the data were processed

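RNA was sequenced from 3 libraries each of wild-type cells, JAG1 knockout clone 1 and JAG1 knockout clone 2. The authors deposited raw counts of reads per gene. STAR, featureCounts, Subread, DESeq2 and GRCh38 are named in the submitters' processing notes, without versions. Strand use and annotation release: not given in the sources used here. Genes were filtered with edgeR 4.0.16 (filterByExpr, minimum count 10), scaled by TMM and tested with the quasi-likelihood test (robust, R 4.3.3) in 1 fit of all 9 libraries, with Benjamini-Hochberg adjustment at 0.05. The filter left 16921 genes. The biological coefficient of variation was 20.3%. No libraries of a group agreed within sampling noise. Gene positions were those given with the deposited counts. Gene types came from GENCODE 29 by symbol (37335 matched), and 658 further symbols were typed from RefSeq. Scripts were tested on simulated data.

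Same-numbered wild-type and clone 2 libraries deviated together (correlations 0.223, 0.269 and 0.246), so the replicate number was also fitted as a block. The pairing comes from the numbers in the labels. Clone 1 did not follow them (0.245, 0.0825 and −0.0965 with wild type), and block values are from the fit of all 9 libraries, which numbers clone 1 the same way, unless the 6 libraries are named. Further fits used RLE size factors, no count filter, DESeq2 1.42.0, limma-voom (limma 3.58.1), corrections for GC content and length or for expression level, the mitochondrial mRNA share as covariate, only the 6 libraries compared, and each library left out in turn. The level correction was chosen after seeing the data.

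Named genes were JAG1, the 15 largest changes per direction among called protein-coding genes with 5 CPM and no overlap, the 10 largest differences in CPM, genes with 2 CPM in 1 group and at most 3 counts in the other, up to 6 called members of each gene list (or that with the smallest p), all Notch list members and the 6 largest changes per direction among long noncoding RNAs. The chromosome stretches and the genes named from them were chosen after their values were seen. A few genes that the rule names are not reported here. Members, lists and rules were chosen with earlier results of these data known.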

Additional observations from a re-analysis of the deposited data

Results flagged for a closer look

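Of the 48 genes named for a large change in clone 2 or for near absence there, 34 also differed between clone 2 and clone 1 by edgeR's quasi-likelihood test of that difference, 20 lower and 14 higher in clone 2. Over all tested genes 33.9% differed. The 48 were picked for their clone 2 values and the same clone 2 libraries enter this test, so a high share is built in and supports nothing. They stand out because the same edited gene came with different values in the 2 knockout lines. This is a difference between single lines, each with 3 libraries.

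The genes that were lower in clone 2 than in clone 1 had these adjusted p-values: MAGEB2 7.09e-10, NAA11 4.83e-08, COL4A5 1.04e-07, CT83 1.94e-07, XAGE2 2.4e-07, DDX53 6.52e-07, ZNF717 1.88e-06, DMD 2.2e-06, EYA1 3.86e-06, PARP15 1.85e-05, LUM 2.4e-05, MAGEA3 4.67e-05, GPR173 6.16e-05, ZNF287 7.45e-05, LINC00989 8.35e-05, CD33 0.000314, MAGEA12 0.000672, CSAG1 0.000781, SLCO4C1 0.00871 and POSTN 0.0345. MAGEB2, an X-linked cancer-testis gene, averaged 44.3 CPM in clone 1 and 2.14 in wild type, and LUM averaged 9.83 and 13.5 CPM.

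Those that were higher in clone 2 than in clone 1 had CNTN1 7.09e-10, CNNM1 3.46e-09, SSX1 8.26e-06, FRMD3 1.23e-05, PSIP1 1.38e-05, PROSER2 0.000602, COBL 0.000773, CNKSR2 0.00107, JAKMIP1 0.00166, MAGEE1 0.00249, ESM1 0.00281, MUSK 0.0114, ZDHHC21 0.0181 and IL24 0.0206. CNTN1 averaged 0.149 CPM in clone 1, 17.2 in wild type and 43.6 in clone 2, and CNNM1 0.183, 12.3 and 30.6.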

How the results depend on the processing

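The 1008 genes called against wild type (543 higher, 465 lower) became 1663 with no filter on low counts (976 lower), 1653 with DESeq2 (864 and 789), 80 with the mitochondrial mRNA share as covariate (11 and 69) and 416 in the fit of the 6 libraries compared (160 and 256). Higher genes were 1056 after the GC content and length correction and 295 with the level trend taken out. With the replicate block 2699 passed (1528 and 1171), with that block and the GC content and length correction 3253 (2288 and 965), and with the block in 6 libraries 4320 (2444 and 1876). The block kept all 187 called named genes, 12 of the 60 others gained a call, given beside those described, and it changed no other call of a named gene. In the 6 libraries alone the block gave a call to 20 of the 60. Leaving out 1 library gave 237 to 1584 called, 62 to 821 higher and 162 to 763 lower. Genes called against clone 1, 5733, became 391 with the mitochondrial covariate and 3639 to 5782 without 1 library. The causes were not tested. JAG1 kept its call in every alternative run. Of the 187 called named genes, the mitochondrial covariate lost 142, the 6-library fit 69 of 186, the level trend 47, the GC content and length correction 8 of 186, RLE size factors 8, no filter 6, limma-voom 5 and DESeq2 0 of 186. No value of these 187 genes reversed: 3027 of their 3735 values held and 708 missed the threshold. Some named genes that were not called, such as NOTCH1, NOTCH2 and ADAM10, changed sign in at least 1 alternative fit.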
